A study of Mus musculus with 18 samples.

Results

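The mRNA of the transcriptional coactivators YAP and TAZ, of their DNA-binding partner TEAD1 and of 7 genes that they are known to drive was followed across rigidity, LINC disruption and myosin inhibition. The members were all rows of the deposited expression table whose symbol was on a list of 10 names, Yap1, Wwtr1, Tead1, Lats2, Amotl2, Ajuba, Ctgf, Cyr61, Ankrd1 and Axl. Each name matched 1 row, which made 10 of 22019 genes, and all 10 were among the 16021 genes that were tested.

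The cells were NIH 3T3, a mouse embryonic fibroblast line, in a Tet-ON form that carried 1 of 2 doxycycline-inducible constructs from a retroviral vector. SUN1L (SS-HA-SUN1L-KDEL) is the lumenal domain of SUN1 kept in the endoplasmic reticulum, a dominant negative that disrupts the LINC complex between nucleus and cytoskeleton. KDEL (SS-GFP-KDEL) is the control construct, and KDEL cells were in addition enriched by sorting, so that construct and sorting cannot be told apart. Both were grown for 48 hr with 1 μg/ml doxycycline on fibronectin-coated polyacrylamide gels of 1 kPa, termed soft, or 308 kPa, termed stiff, with 3 libraries in each of these 4 groups. KDEL cells on 308 kPa gels were also treated with 25 μM Y27632, an inhibitor of the kinase ROCK (Y27, 3 libraries), or with 10 μM blebbistatin, an inhibitor of myosin II (2 libraries). The last of the 18 libraries, number 34, came from empty vector cells on 308 kPa. Its labels name Y27 in one place and blebbistatin in another, and it was left out of the main comparisons of groups. Libraries are called here by their serial numbers. The study's methods describe 3 biological replicates per condition, but the labels do not number them.

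YAP and TAZ carry no DNA-binding domain of their own. When the kinases LATS1 and LATS2 phosphorylate them they are held in the cytoplasm, and when they are not phosphorylated they enter the nucleus and act with TEAD factors. In fibroblasts this switch is known to respond to the stiffness of the matrix, to cell spreading and to actomyosin tension, and it acts largely on where the proteins are rather than on how much of their mRNA is made. For this reason the mRNA of the targets is the usual readout of the pathway.

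TEAD factors bind the letters GGAATG, or CATTCC on the other strand. The promoters of members in RefSeq (GRCm38.p6, 250 bases before to 50 after each start) were searched for these letters on both strands to show where they lie in the genes whose mRNA is followed below. Windows were held for 8 of the 10 members, matched by gene ID, and not for Ctgf and Tead1. All 8 had the motif in at least 1 window, in 9 of their 10 windows, against 14.7% of all 32851 windows of the same length. The motif began 103 bases before the start of Cyr61, 65 before that of Amotl2, 141 before that of Yap1, 233 before that of Axl and at 136 and 170 before the starts of Wwtr1. Ajuba had 2 copies (186 and 164 bases before the start) and Ankrd1 also had 2 (210 and 123 before). In Lats2 the single copy lay after the start, from base 5. The match is one of letters and not a measurement of binding. Shown here are the 250 bases before the start of Cyr61 and Ankrd1, the members with the smallest p under blebbistatin. Also shown are 100 bases around the motifs of Amotl2 and Ajuba, which moved with the library numbers. Each is written 5′ to 3′ on the strand of the gene, with the motif in capitals.

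Cyr61, chr3:145649986-145650235, minus strand: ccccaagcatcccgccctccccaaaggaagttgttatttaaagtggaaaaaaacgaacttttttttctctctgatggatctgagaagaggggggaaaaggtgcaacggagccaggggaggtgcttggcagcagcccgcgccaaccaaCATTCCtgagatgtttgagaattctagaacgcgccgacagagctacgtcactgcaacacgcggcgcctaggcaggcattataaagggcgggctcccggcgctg

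Ankrd1, chr19:36119845-36120094, minus strand: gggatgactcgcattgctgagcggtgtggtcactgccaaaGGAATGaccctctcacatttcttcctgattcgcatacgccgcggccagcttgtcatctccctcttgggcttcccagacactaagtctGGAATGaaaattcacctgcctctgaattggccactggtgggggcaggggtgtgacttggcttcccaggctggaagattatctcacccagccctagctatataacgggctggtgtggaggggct

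Amotl2, chr9:102717674-102717773, plus strand: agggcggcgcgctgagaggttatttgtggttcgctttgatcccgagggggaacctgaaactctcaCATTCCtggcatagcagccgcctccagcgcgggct

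Ajuba, chr14:54577772-54577871, minus strand: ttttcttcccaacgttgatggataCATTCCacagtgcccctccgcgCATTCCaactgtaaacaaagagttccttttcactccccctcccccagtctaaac

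Values are the authors' normalized signal, a linear scale whose lowest value is 1 and on which 1 read pair was worth between 1.70 and 2.49 units. Between 12670000 and 19460000 read pairs stood behind a library, and no member rested on fewer than 856 pairs in any library, so counting error was small beside the spread between libraries. All 8 fibroblast markers examined were high in all 18 libraries, from Thy1 at 1132 or more to Fn1 at 135300 or more. Of 7 markers of other cell types, Myod1 was at the lowest value in 18 libraries, Epcam in 17, Myog in 16 and Ptprc in 6. Cdh1 ranged from 88.0 to 311, Cdh5 from 7.00 to 234 and Pecam1 from 7.87 to 70.3. The summed signal of the 7 was between 194 and 579. Sun1 signal, which includes the construct, lay between 38450 and 82620 in the 6 SUN1L libraries and between 2785 and 3799 in the other 12, as the labels say. Libraries 3, 7 and 8 stood apart from the rest: the mean log2 signal of 25 genes of the G2/M phase of the cell cycle was 8.51, 8.77 and 9.08 there and between 11.34 and 12.10 in the other 15. Library 3 was SUN1L on 1 kPa, library 7 SUN1L on 308 kPa and library 8 untreated KDEL on 308 kPa. Main counts of members and some of the differences that moved with these libraries are given with and without them.

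All members were well expressed. Per kilobase of the longest coding transcript, the median signal over the 18 libraries was highest for the receptor tyrosine kinase Axl (7985), followed by Amotl2 (6217), Ctgf (6050) and Cyr61 (5626). Ankrd1 (2532) and Yap1 (1631) came next, and Ajuba (760), Wwtr1 (703), Tead1 (650) and Lats2 (584) were the lowest. The coactivators were also the steadier genes. Yap1 varied least of the 10, from 5840 to 7497, a ratio of 1.28 between the highest and the lowest library. The widest ratios were those of Ctgf (3.90), Cyr61 (3.42) and Amotl2 (2.81). For comparison, the median ratio over the 6524 tested genes with a mean signal of at least 1000 was 1.75.

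**Figure D1:**
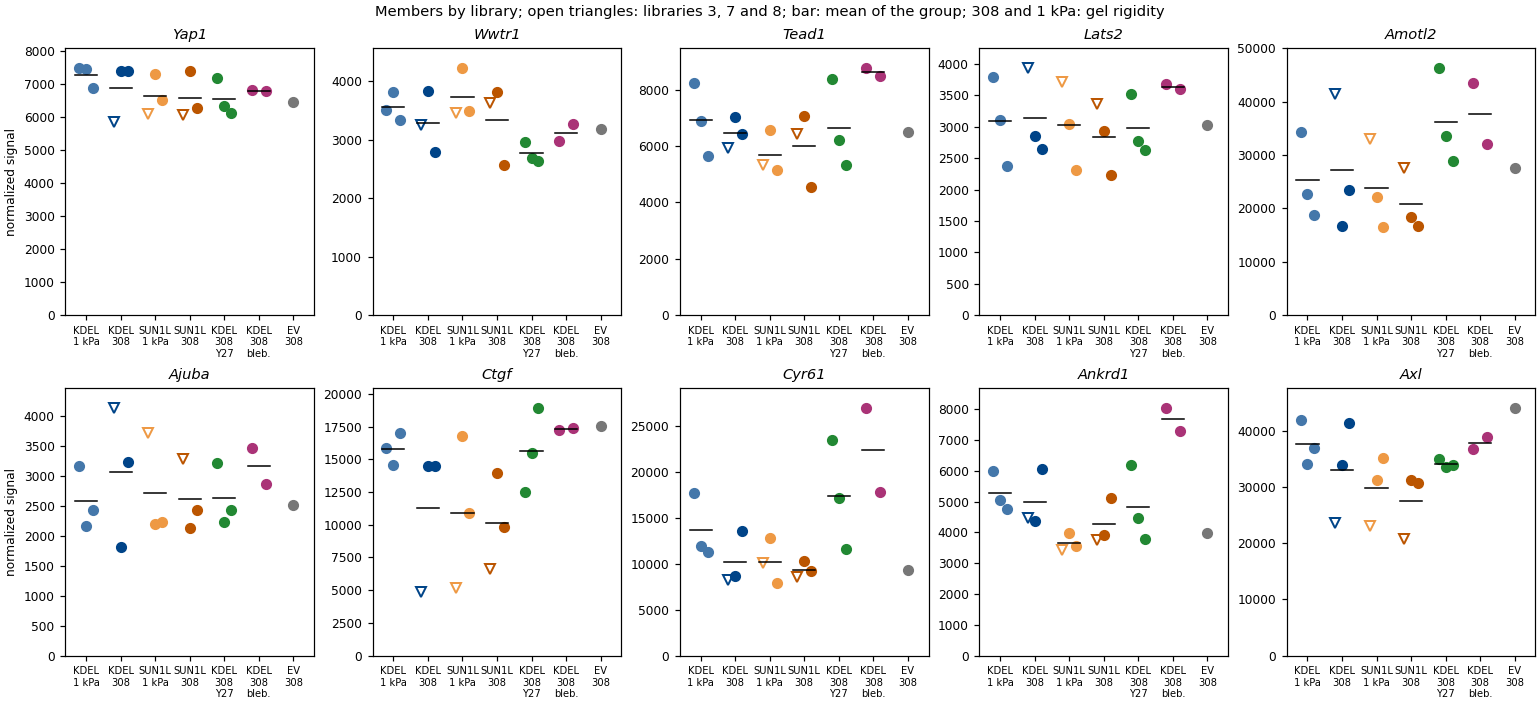
Normalized signal (linear axis from 0) of each member in every library, by group, with the mean of a group as a bar and libraries 3, 7 and 8 as open triangles; EV marks empty vector cells. Groups overlap in most panels, the open triangles are the lowest points for Ctgf (4850 to 6616) and Axl (20694 to 23538), and the blebbistatin libraries are the highest points for Ankrd1 (7303 and 8037).

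The first question was whether the pathway's genes differed between soft and stiff gels. No member was called, in KDEL cells, in SUN1L cells or over both constructs, where a call needed a Benjamini-Hochberg adjusted p under 0.05 in limma and at least a 2-fold difference. The background was the same, with 0% of the 16021 tested genes called in each of the 3 comparisons. Over both constructs 8 of the 10 members were lower on 308 kPa, with a median log2 difference of -0.06, against 54.2% of all tested genes lower and a median of -0.01. Without libraries 3, 7 and 8 it was again 8 of 10, with a median of -0.08. Without the libraries numbered 3 to 12 it was 6 of 10, with a median of -0.02, against 52.1% of all tested genes. In KDEL cells alone 4 of 10 were then lower, with a median of 0.03. With quantile normalization 7 of 10 were lower over both constructs. Over both constructs and all 12 libraries the 25 G2/M genes were all lower (median -0.33), as were all 8 fibroblast markers (median -0.26). The G2/M median was -0.90 in KDEL cells and 0.29 in SUN1L cells. Mean log2 G2/M signal in KDEL libraries was 11.78, 11.59 and 11.94 on 1 kPa and 9.08, 11.52 and 12.10 on 308 kPa. Of these only library 8 (9.08) stood apart. The part of either list in the members' values was not tested. None of the 10 members had an unadjusted p under 0.05 in limma over both constructs, and 2.91% of all tested genes had. In such bulk libraries, fewer cells that express a gene and less RNA per cell cannot be told apart.

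Yap1 (chr9:7931999-8004596 in the table's coordinates), which encodes YAP, had values of 7497, 7456 and 6868 in KDEL libraries 4, 16 and 28 on 1 kPa and of 5840, 7411 and 7401 in libraries 8, 20 and 32 on 308 kPa. Only library 8 was set apart among these 6, and the groups overlapped. The log2 difference was -0.09 (SE 0.13, 95% confidence interval -0.38 to 0.20), and 0.03 (SE 0.11) without libraries 3, 7 and 8. In SUN1L cells it was -0.02 (SE 0.13, interval -0.31 to 0.27). Wwtr1 (chr3:57455649-57575910), which encodes TAZ, had differences of -0.12 (SE 0.17) in KDEL cells and -0.17 (SE 0.17) in SUN1L cells. Those of Tead1 (chr7:112679318-112906807) were -0.08 and 0.07, each with an SE of 0.19. All 6 confidence intervals held 0.

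Ctgf (chr10:24595442-24598683) and Cyr61 (chr3:145646971-145649985) encode secreted matricellular proteins and are the most used YAP/TAZ targets. Ctgf signal in KDEL cells was 15892, 14559 and 17007 on 1 kPa and 4850, 14515 and 14494 on 308 kPa. All 3 stiff libraries were under all 3 soft ones, but 2 of them by little, and library 8 was less than any soft library by a wide margin. The mean was 15820 ± 1226 (SD, n = 3) on 1 kPa and 11290 ± 5574 (SD, n = 3) on 308 kPa, a log2 difference of -0.65 (SE 0.49, interval -1.74 to 0.44). Ctgf was the only member whose KDEL groups did not overlap, where 2.65% of all tested genes were lower on 308 kPa without overlap. Without libraries 3, 7 and 8 its difference was -0.12 (SE 0.22).

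In SUN1L cells Ctgf was 5127, 16751 and 10876 on 1 kPa and 6616, 13922 and 9859 on 308 kPa. Here the lowest library of each gel was the one with low G2/M signal, and the groups overlapped fully, with a log2 difference of -0.01 (SE 0.49, interval -1.10 to 1.07).

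Cyr61 was 17778, 11930 and 11243 in KDEL libraries on 1 kPa and 8206, 8672 and 13594 on 308 kPa. Libraries 8 and 20 were below every soft library and library 32 was above 2 of them, so the groups overlapped. The log2 difference was -0.43 (SE 0.25, interval -0.98 to 0.11), and it was -0.30 (SE 0.30) without libraries 3, 7 and 8. In SUN1L cells the difference was -0.11 (SE 0.25). Over both constructs it was -0.27 (SE 0.18, unadjusted p = 0.15, adjusted p = 1 in limma).

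Ankrd1 (chr19:36111965-36119844) encodes an ankyrin repeat protein of muscle and stretched cells. Its log2 difference between the gels was -0.09 (SE 0.17) in KDEL cells and 0.22 (SE 0.17, interval -0.15 to 0.58) in SUN1L cells. Axl (chr7:25757273-25788705) had differences of -0.22 and -0.12, each with an SE of 0.26, and of -0.00 (SE 0.16) and -0.10 (SE 0.17) without libraries 3, 7 and 8. Lats2, Amotl2 and Ajuba, which are targets of YAP/TAZ and regulators of the pathway at once, lay between -0.17 and 0.18 in both constructs. Without libraries 3, 7 and 8 their differences in KDEL cells were -0.14 (SE 0.22), -0.31 (SE 0.28) and -0.07 (SE 0.26).

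The intervals, each for 1 gene, bound what could have been missed over both constructs, but they were wider in each construct alone. There the interval of Ctgf ran from -1.74 to 0.44 in KDEL cells and from -1.10 to 1.07 in SUN1L cells. Over both constructs the upper limit of the log2 difference between stiff and soft gels was highest for Ajuba (0.56) and Amotl2 (0.53), and for all 10 it was under the 1 that a 2-fold rise makes. For Ctgf and Cyr61 the upper limits were 0.44 and 0.12. The lower limits were -1.10 for Ctgf and no less than -0.66 for the other 9. The difference between the rigidity effects of SUN1L and KDEL cells was tested as an interaction, for which no member and 0% of all genes had a Bonferroni-corrected p under 0.05. The smallest unadjusted p among the 10 was that of Ankrd1 (0.213 in limma), with an interaction of 0.31 (SE 0.23).

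**Figure D2:**
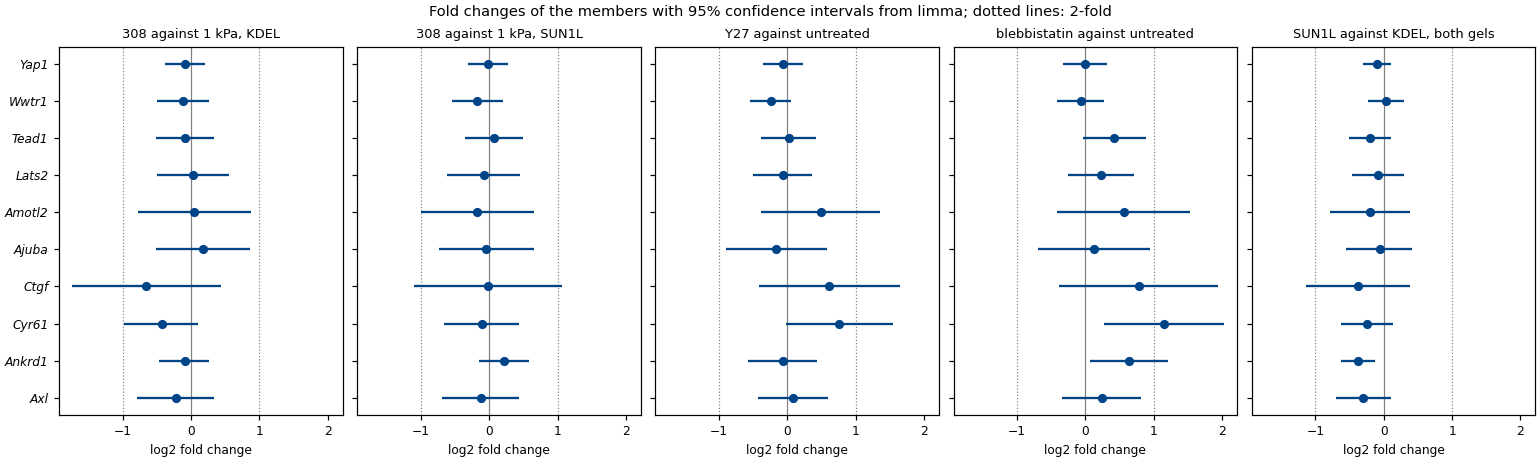
Log2 fold changes of the members (points) with 95% confidence intervals (lines) in 5 comparisons, with dotted lines at a 2-fold change. For rigidity most intervals lie within the dotted lines, and the intervals that leave out 0 are those of Cyr61 (0.27 to 2.03) and Ankrd1 (0.07 to 1.20) under blebbistatin and of Ankrd1 in SUN1L cells (-0.63 to -0.12).

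The next comparisons asked whether lowering actomyosin tension on the stiff gel moved the same genes. Both inhibitors were compared with the same 3 untreated KDEL libraries, number 8 among them, which also form the stiff group of the rigidity comparison, so these comparisons are not independent. No member was called under either inhibitor, and 0% of all tested genes were called in each. Under Y27 5 of 10 members were higher and 5 lower (50.9% of all tested genes were higher), with a median log2 difference of -0.02. Under blebbistatin 8 of 10 were higher, with a median of 0.33, against 49.6% of all tested genes and a median of 0.00. Without library 8 these counts were again 5 and 8, with medians of 0.02 and 0.37. All 25 G2/M genes were higher under both inhibitors (median 0.85 under Y27 and 0.73 under blebbistatin), with library 8 among the untreated. Their mean log2 signal was 9.08, 11.52 and 12.10 in the untreated libraries 8, 20 and 32. It was 11.59, 11.70 and 11.87 under Y27 and 11.43 and 11.87 under blebbistatin. Of the untreated libraries only number 8 lay below all the treated ones. Of the 8 fibroblast markers 7 were higher under Y27 (median 0.64) and 8 under blebbistatin (median 0.47). The part of either list in the members' values was not tested.

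Cyr61 had the largest differences. The untreated libraries 8, 20 and 32 had 8206, 8672 and 13594, the Y27 libraries 12, 24 and 36 had 23508, 17238 and 11576, and the blebbistatin libraries 10 and 22 had 26997 and 17836. Both blebbistatin libraries were above every untreated library, whereas 1 of the 3 Y27 libraries lay inside the untreated range. The mean was 22420 ± 6478 (SD, n = 2) under blebbistatin, 17440 ± 5968 (SD, n = 3) under Y27 and 10160 ± 2985 (SD, n = 3) untreated. In limma blebbistatin gave 2.22-fold the untreated level (log2 1.15, SE 0.37, interval 0.27 to 2.03, unadjusted p = 0.0176, adjusted p = 1). Y27 gave 1.69-fold (log2 0.76, SE 0.33, interval -0.02 to 1.54, unadjusted p = 0.0558, adjusted p = 0.827). Without library 8 the log2 values were 1.01 (SE 0.42) and 0.62 (SE 0.38). Within the runs of serial numbers described further on, Y27 and blebbistatin libraries exceeded their untreated library 2.86-fold and 3.29-fold in numbers 3 to 12 and 1.99-fold and 2.06-fold in numbers 15 to 24, and the Y27 library was 0.852-fold its untreated library in numbers 27 to 36.

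Ankrd1 was 8037 and 7303 under blebbistatin, against 4479, 4384 and 6076 untreated and 6204, 4458 and 3786 under Y27. The 2 blebbistatin libraries were the highest of all 18, and the Y27 libraries covered the untreated range. The log2 difference under blebbistatin was 0.64 (SE 0.24, interval 0.07 to 1.20, unadjusted p = 0.0321, adjusted p = 1), and under Y27 it was -0.06 (SE 0.21). Cyr61 and Ankrd1 were the members with an unadjusted p under 0.05 against untreated cells, 2 of 10 under blebbistatin and 0 of 10 under Y27, where 3.04% and 5.80% of all tested genes had one. Without library 8 they were Lats2 and Amotl2 under blebbistatin and Amotl2 under Y27, where 688 and 1122 of all 16021 tested genes had one. With a block on the runs Ankrd1 differed under blebbistatin by 0.63 (SE 0.27). Cyr61 alone then had an unadjusted p under 0.05 under blebbistatin, where 692 of the 16021 had one.

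Ctgf was 17235 and 17422 under blebbistatin and 12496, 15488 and 18912 under Y27, against 4850, 14515 and 14494 untreated. The blebbistatin libraries were above all 3 untreated ones, and the Y27 libraries were not. The log2 differences were 0.78 (SE 0.49) for blebbistatin and 0.61 (SE 0.44) for Y27, and without library 8 they were 0.26 (SE 0.20) and 0.09 (SE 0.18). In these data the G2/M genes moved with this difference, since library 8 has low G2/M signal: their median log2 difference was 0.73 under blebbistatin and 0.85 under Y27, and their part in the values of Ctgf was not tested.

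Tead1 was 8780 and 8489 under blebbistatin and 5921, 7032 and 6421 untreated. The groups did not overlap, and the log2 difference was 0.42 (SE 0.19, interval -0.03 to 0.88, unadjusted p = 0.0643, adjusted p = 1). With Ctgf, Cyr61 and Ankrd1 this made 4 of 10 members whose blebbistatin libraries were all above the untreated ones, where 7.20% of all tested genes were. Under Y27 all 10 members overlapped with untreated cells. With 3 Y27 and 2 blebbistatin libraries, groups separate less readily under Y27, so these counts cannot be set against each other. The coactivators themselves differed by -0.06 (Yap1, SE 0.12) and -0.24 (Wwtr1, SE 0.13, interval -0.55 to 0.06) under Y27 and by -0.01 (SE 0.14) and -0.07 (SE 0.14) under blebbistatin.

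Amotl2 (chr9:102716672-102733418) encodes an angiomotin-like protein that binds YAP at cell junctions. Its signal was 46332, 33453 and 28802 under Y27 and 43406 and 32064 under blebbistatin, against 41496, 16685 and 23375 untreated. Each treated library was above the untreated library of its own run, 3 of 3 for Y27 and 2 of 2 for blebbistatin. How many of all tested genes did the same was not counted. The groups overlapped, as the untreated library 8 (41496) lay within the treated range. The numbers 3 to 12 were high in every group, and library 8 is among them and also had low G2/M signal. The log2 differences were 0.49 (SE 0.36) and 0.56 (SE 0.41), and with a block on the runs 0.49 (SE 0.22, adjusted p = 0.596) and 0.46 (SE 0.26, adjusted p = 0.782). Without library 8, the highest of the untreated libraries, they were 0.84 (SE 0.28, adjusted p = 0.654) and 0.92 (SE 0.31, adjusted p = 0.971).

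The 2 inhibitors were also set against each other. No member was called (0% of all tested genes). All 10 members were lower under Y27 than under blebbistatin, with a median log2 difference of -0.23, while 46.1% of all tested genes were lower and their median was 0.01. With a block on the runs it was 9 of 10, with Amotl2 at 0.03 (SE 0.26). For 5 of 10 (Wwtr1, Tead1, Lats2, Ankrd1 and Axl) all 3 Y27 libraries were below both blebbistatin libraries, against 8.98% of all tested genes. Inhibitor and run were unbalanced, since the numbers 27 to 36 held a Y27 library (36) and none labelled as KDEL cells with blebbistatin. Library 36 was the lowest Y27 library for Wwtr1, Tead1, Lats2 and Ankrd1, but not for Axl. For Wwtr1 the nearest libraries of the groups were level, at 2970.0 and 2970.4. Ankrd1 had the largest difference, -0.70 (SE 0.24, interval -1.27 to -0.14, unadjusted p = 0.0222, adjusted p = 1 in limma). It was the only member with an unadjusted p under 0.05, where 2.32% of all tested genes had one. With a block on the runs its difference was -0.70 (SE 0.27). No member then had an unadjusted p under 0.05, where 460 of 16021 tested genes had one. The intervals of Cyr61 (-1.27 to 0.49) and Ctgf (-1.33 to 0.99) were wide. The agents differ in dose and target, and blebbistatin had 2 libraries.

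The blebbistatin values depend on how the library of empty vector cells is counted. Its Cyr61 was 9332, its Ankrd1 3973 and its Tead1 6507, each within or under the untreated KDEL values, while its Ctgf was 17558. Counted with the blebbistatin libraries, it took the log2 difference of Cyr61 to 0.74 (SE 0.42) and that of Ankrd1 to 0.32 (SE 0.30), and no member then had an unadjusted p under 0.05 against untreated cells. Between the inhibitors 8 of 10 members were then lower under Y27, with Amotl2 at 0.07 (SE 0.35), Cyr61 at 0.02 (SE 0.42) and Ankrd1 at -0.38 (SE 0.30), and again no member had an unadjusted p under 0.05.

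The last comparison asked how the members differed after LINC disruption. None of the 10 was called in SUN1L against KDEL cells, on 1 kPa (0.0874% of all tested genes called), on 308 kPa (0.0624%) or over both gels (0.181%). Over both gels 9 of 10 members were lower in SUN1L cells, with a median log2 difference of -0.20, against 54.6% of all tested genes lower and a median of -0.02. The exception was Wwtr1 (0.04, SE 0.12). Of the 3 libraries with low G2/M signal 2 were SUN1L libraries, and the median of the 25 G2/M genes was -0.73 in the same comparison. The part of this in the members' values was not tested. Without libraries 3, 7 and 8 it was again 9 of 10 members that were lower, with a median of -0.23.

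Ankrd1 had the smallest p of the 10 over both gels. On 1 kPa it was 3416, 3968 and 3548 in SUN1L cells and 5999, 5052 and 4772 in KDEL cells. All 3 SUN1L libraries were below all 3 KDEL libraries, which held for 1 of 10 members and for 7.86% of all tested genes. The means were 3644 ± 288 (SD, n = 3) and 5275 ± 643 (SD, n = 3). SUN1L cells had 0.693-fold the KDEL level (log2 -0.53, SE 0.17, interval -0.89 to -0.16, unadjusted p = 0.00869, adjusted p = 0.93 in limma), and 4.54% of all tested genes had an unadjusted p under 0.05. On 308 kPa Ankrd1 was 3755, 3926 and 5121 in SUN1L cells and 4479, 4384 and 6076 in KDEL cells, groups that overlapped, with a log2 difference of -0.22 (SE 0.17, interval -0.59 to 0.14). In each of the 3 runs of serial numbers the SUN1L library was below the KDEL library on both gels. It was at 0.570-fold to 0.785-fold on 1 kPa and 0.838-fold to 0.895-fold on 308 kPa. How many of all tested genes did the same was not counted. Over both gels the difference was -0.37 (SE 0.12, interval -0.63 to -0.12, unadjusted p = 0.00864, adjusted p = 0.516), where 6.80% of all tested genes had an unadjusted p under 0.05. It was -0.34 (SE 0.14, adjusted p = 0.627) without libraries 3, 7 and 8 and -0.30 (SE 0.14, adjusted p = 0.885) without the libraries numbered 3 to 12.

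For Ctgf, Cyr61 and Axl the intervals held 0 on both gels. Ctgf differed by -0.69 (SE 0.49) on 1 kPa and -0.06 (SE 0.49) on 308 kPa, and by -0.23 (SE 0.22) and -0.31 (SE 0.24) without libraries 3, 7 and 8. Cyr61 differed by -0.41 (SE 0.25) on 1 kPa and -0.08 (SE 0.25) on 308 kPa. Axl was 41922, 34135 and 36985 in KDEL and 23120, 31280 and 35200 in SUN1L cells on 1 kPa, which overlapped by 1 library. Over both gels it differed by -0.30 (SE 0.18, interval -0.70 to 0.10), by -0.23 (SE 0.12) without libraries 3, 7 and 8 and by -0.30 (SE 0.13, adjusted p = 0.315) with a block on the runs. The SUN1L library was below the KDEL library of its run in all 6 pairs. It was at 0.552-fold to 0.952-fold on 1 kPa and 0.74-fold to 0.917-fold on 308 kPa. Among the members only Ankrd1 and Axl were lower in all 6 pairs, and how many of all tested genes were was not counted. With the block Ankrd1 and Axl had an unadjusted p under 0.05 in limma over both gels, as had 2513 of all 16021 tested genes. Without it Ankrd1 alone had one, where 1089 of the 16021 did. Yap1 (-0.10, SE 0.09) and Tead1 (-0.20, SE 0.13) had upper limits of 0.11 and 0.10, and their lower limits were -0.30 and -0.50.

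Some members set single libraries apart from all others. Ctgf was 5127, 6616 and 4850 in libraries 3, 7 and 8 and between 9859 and 18912 in the other 15. Axl was between 20694 and 23538 in the 3 libraries and between 30680 and 44017 in the others, and Yap1 between 5840 and 6107 against 6127 to 7497. For these 3 members the low-G2/M libraries lay below all others, by a wide gap for Ctgf and Axl and a narrow one for Yap1, and so they did for 12.9% of all tested genes. The other 7 members overlapped, among them Cyr61 (8206 to 10086 against 7889 to 26997) and Ankrd1 (3416 to 4479 against 3548 to 8037). The 3 libraries were named here from their G2/M signal and not from the labels, so no test was made between them and the rest.

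**Figure D3:**
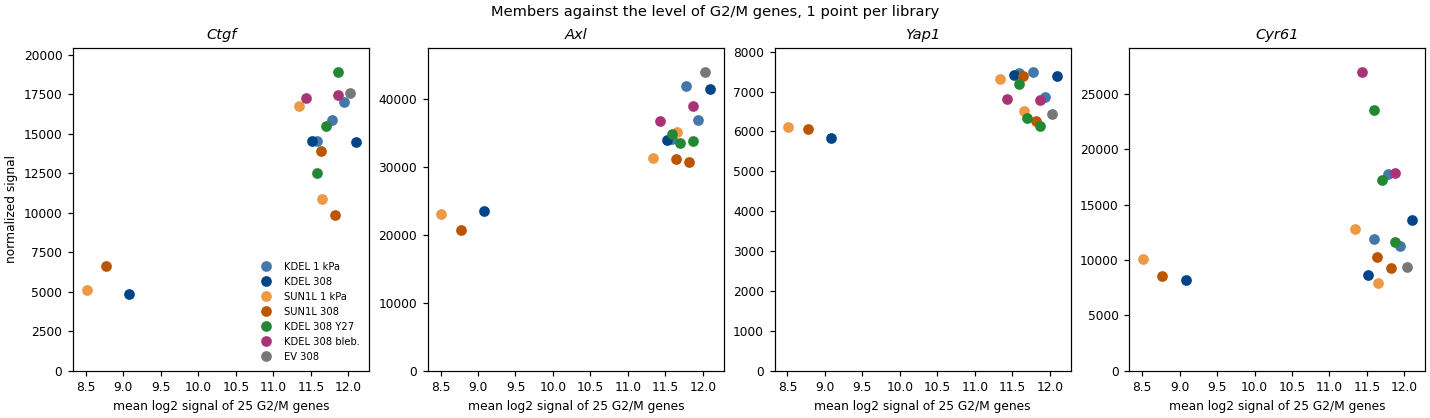
Normalized signal of Ctgf, Axl, Yap1 and Cyr61 (linear axes from 0) against the mean log2 signal of 25 G2/M genes, 1 point per library coloured by group. Libraries 3, 7 and 8 lie at 8.51 to 9.08 on the horizontal axis, and their Ctgf (4850 to 6616) is below that of the other 15 libraries (9859 to 18912) while their Cyr61 is not.

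A second pattern followed the serial numbers, which fall into 3 runs, 3 to 12, 15 to 24 and 27 to 36. The labels do not say what the libraries of a run share. Lats2 (chr14:57642077-57758388), the kinase that inactivates YAP and TAZ, Amotl2 and Ajuba (chr14:54567469-54577661), a LIM protein that restrains LATS kinases, were highest in the library numbered 3 to 12 in all 6 groups. This was noticed after the values were seen, and 4.45% of all tested genes did the same. The annotated Lats2 overlaps Xpo4 (947 to 2381 in signal) on the same strand, so that some of its reads are uncertain. Lats2 lay between 3363 and 3941 in the 6 libraries of that run and between 2227 and 3594 in the other 12. Amotl2 lay between 27557 and 46332 against 16469 to 33453, and Ajuba between 3169 and 4129 against 1816 to 3232. The other 7 members were highest in that run in 0 (Ctgf) to 3 of the 6 groups. Unlike the G2/M signal, this held also for libraries 4, 10 and 12. Fitted as a block, the runs lowered the SE of the rigidity difference in KDEL cells from 0.24 to 0.08 for Lats2, from 0.38 to 0.17 for Amotl2 and from 0.31 to 0.14 for Ajuba, and these differences then stood at 0.03, 0.05 and 0.18.

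**Figure D4:**
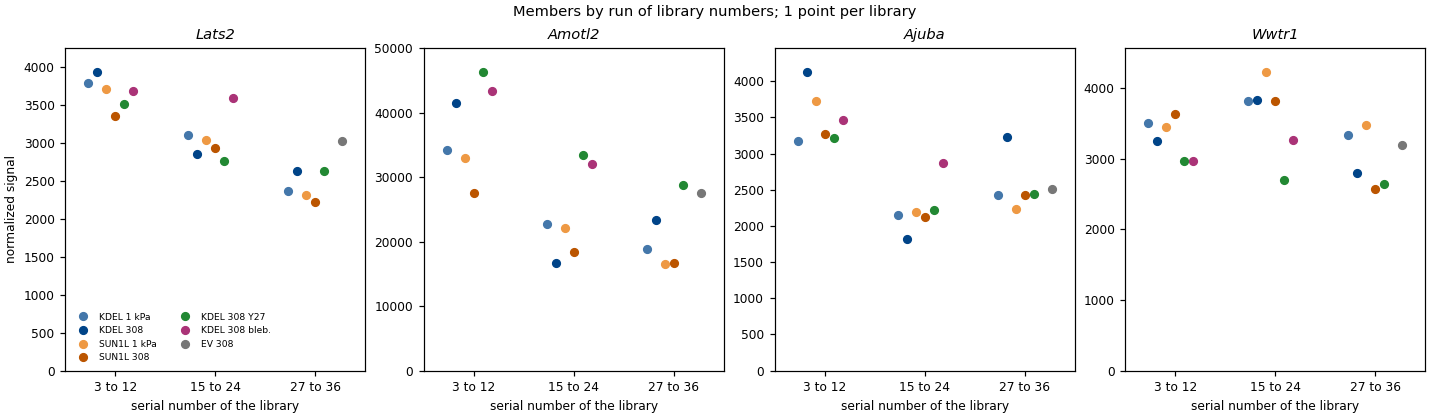
Normalized signal of Lats2, Amotl2, Ajuba and, for contrast, Wwtr1 (linear axes from 0) by run of serial numbers, 1 point per library coloured by group. The libraries numbered 3 to 12 hold the highest value of every group for the first 3 genes (Amotl2 27557 to 46332) and of 1 of 6 groups for Wwtr1.

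Beside the members, 26 genes of the Hippo pathway (kinases, scaffolds, TEAD and VGLL factors) and 15 other known YAP/TAZ targets were examined. Tested were 25 of the 26 and 13 of the 15, and none of either list had an adjusted p under 0.05 in any of the 10 comparisons. Under the call rule of each comparison between 0% and 0.181% of all tested genes were called. Between the gels over both constructs, 8 Hippo genes were higher and 17 lower on 308 kPa (median -0.04). There 2 targets were higher and 11 lower (median -0.10), against 54.2% of all tested genes lower (median -0.01). Under blebbistatin 20 Hippo genes were higher and 5 lower (median 0.11), and 9 targets were higher and 4 lower (median 0.20). Of all tested genes 49.6% were higher there (median -0.00). Under Y27 the counts were 11 and 14 (median -0.04) and 7 and 6 (median 0.05), against 50.9% of all tested genes higher (median 0.01).

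The gene of each list with the smallest unadjusted p in limma was named for rigidity over both constructs, Y27 and blebbistatin. Taok2, a kinase upstream of MST1/2, differed between the gels by -0.20 (SE 0.06, unadjusted p = 0.0109, adjusted p = 1) and under Y27 by 0.20 (SE 0.08, unadjusted p = 0.0494, adjusted p = 0.827). Wwc2, a scaffold of the KIBRA family, had a mean of 5648 under blebbistatin and 4635 untreated (log2 0.29, SE 0.10, unadjusted p = 0.0215, adjusted p = 1). Among targets, Arhgef17 differed between the gels by -0.17 (SE 0.13, unadjusted p = 0.216). Crim1, a membrane protein that binds growth factors, had a mean of 12605 under blebbistatin and 7273 untreated (log2 0.79, SE 0.19, unadjusted p = 0.00499, adjusted p = 1). Nt5e differed under Y27 by -1.43 (SE 0.30, unadjusted p = 0.00239, adjusted p = 0.793), but from a mean of 5.85 to 1.66, a level of a few read pairs. Tead3, a TEAD factor, was named after its values were seen: it differed between SUN1L and KDEL cells over both gels by 0.36 (SE 0.08, unadjusted p = 0.0016, adjusted p = 0.295).

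The 5 genes whose log2 signal was most like that of Ctgf, Cyr61 and Ankrd1 over the 18 libraries were sought among the 10582 genes outside the members with a mean signal of at least 100. These correlations describe libraries that share groups and runs. Among the genes most like Ctgf were Pask, Smc2, Trim59 and Fam198b (Pearson's r from 0.954 to 0.955). Smc2 is a condensin subunit, and its signal ranged from 1060 to 5676. After the group means were subtracted r of these 4 was between 0.930 and 0.956, and without the libraries numbered 3 to 12 it was between 0.780 and 0.899.

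Cyr61 was most like Disp1, F3, Slc44a2, Zyx and C1ra (r from 0.879 to 0.923). F3 encodes tissue factor, the starter of coagulation, and Zyx encodes zyxin, a protein of focal adhesions and stress fibres. Without the libraries numbered 3 to 12 these values were between 0.637 and 0.849. Ankrd1 was most like Tdrkh, Npr3, Fhl2, Pdk3 and Cald1 (r from 0.844 to 0.888), of which Fhl2 is a LIM protein and Cald1 encodes caldesmon, which binds actin and myosin. The likeness of Fhl2 (0.845) was 0.867 without the libraries numbered 3 to 12, and that of the other 4 lay between 0.716 and 0.796.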

How the data were processed

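Polyadenylated RNA of the 18 libraries was sequenced by the authors as paired-end reads and aligned with TopHat2 2.0 to mm9, per the submitters' processing notes and the study's methods. In AvadisNGS the authors filtered reads on quality, mates and duplicates and scaled genes by the trimmed mean of M-values. The deposited values are the resulting normalized signal, linear, 1 column per library, with a lowest value of 1. They are not counts, and whole reads were not recovered. The low values lie on steps, and the sum of a library divided by its step gave its read pairs. The gene positions in the table fall on GRCm38 rather than mm9: for 6 of the 8 members with a RefSeq promoter the gene start lay within its window.

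On log2(value + 1), limma 3.58.1 in R 4.3.3 was fitted with its trend option and a separate mean for each group, over 12 libraries for rigidity and SUN1L and over 8 for the inhibitors. A gene was tested where 3 or more of the 18 libraries exceeded the lowest value, and tests were two-sided. p-values measure the spread between these libraries. The study's z-score calculation was not used. With 3 libraries against 3 an exact permutation test cannot go below 0.1, so p-values come from limma. The script was tested on simulated data. Fold changes are on the log2(value + 1) scale.

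The members, the gene lists and the tests were chosen with earlier results of these data known. Named were the members, the gene of each list with the smallest p where none had an adjusted p under 0.05, and the 5 genes most like 3 targets. Of these, 1 gene is not reported here. The alternatives were pseudocounts of 8 and 0.1, no filter, a mean of at least 10, quantile normalization, all 18 libraries in 1 fit, no trend, a block on runs of serial numbers, the libraries numbered 3 to 12 left out, each library left out, no fold limit and the empty vector library counted as blebbistatin; leaving out libraries 3, 7 and 8 was added after the data were seen. Library 34 was matched to a column numbered 35 through its heading. The promoter sequences come from RefSeq, GRCm38.p6.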

Additional observations from a re-analysis of the deposited data

Results flagged for a closer look

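The library of empty vector cells, number 34, was left out of the main comparisons. In it 2 members had a signal above all 3 untreated KDEL libraries on 308 kPa. Ctgf was 17558 there, and Axl was 44017, the highest Axl of all 18 libraries. With 1 library and labels in conflict over its inhibitor, no test was made.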

How the results depend on the processing

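No member was called in any of the 10 comparisons under any alternative, 220 recomputed counts in all, each of them 0. Few genes were called at all, so these counts say little about the members. With the block on runs 0 of 16021 tested genes were called for rigidity, the inhibitors and the interaction. For SUN1L against KDEL cells 17 were called on 1 kPa, 12 on 308 kPa and 58 over both gels. Of 2110 recomputed log2 differences of single members, 35 moved by more than 1 SE, 15 of them without the libraries numbered 3 to 12 and 5 without libraries 3, 7 and 8, an alternative added after the data were seen. The sign changed in 147, none of which had an unadjusted p under 0.05 as reported. Ctgf moved most with library 8: its rigidity difference in KDEL cells was -0.65 with it and -0.12 without. Cyr61 under blebbistatin ranged from 0.85 to 1.45 when each library was left out in turn, and was 0.72 (SE 0.44) without the libraries numbered 3 to 12, which leaves 1 blebbistatin library that is assumed to vary like the other groups. Ankrd1 in SUN1L against KDEL cells over both gels ranged from -0.44 to -0.30 in the 12 fits that each left out 1 library.

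By replicate number, no paired analysis was possible because the labels number no replicates, and the runs of serial numbers gave the blocks used in its place. A block on the runs of serial numbers, which the labels do not describe, called 0 of 10 members in all 10 comparisons. The counts for all genes are given above. The lowest adjusted p of a member with this block was that of Ankrd1 in SUN1L cells (0.174 over both gels in limma).

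Limits are the 2 or 3 libraries of a group and the spread between them rather than depth. In the likeness of genes to Ctgf, Cyr61 and Ankrd1, 16 of 30 recomputed r moved by over 0.1.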
